A study of Mus musculus with 4 samples.

Results

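Replication-dependent histone genes code for the H1, H2A, H2B, H3 and H4 proteins that package newly copied DNA. They were taken as the protein-coding RefSeq genes of mouse assembly GRCm38.p6 (mm10) whose symbol starts with Hist1h, Hist2h, Hist3h or Hist4h, or is H1f1 to H1f6, H2ac, H2bc, H3c or H4c followed by a digit. The rule found 63 genes among the 21631 protein-coding genes of the autosomes and X. There were 6 H1, 17 H2A, 16 H2B, 12 H3 and 12 H4 genes. The Hist1 cluster on chromosome 13 held 53 of them and the Hist2 cluster on chromosome 3 held 10. Another 4 genes carry a matching name only as an older synonym and are given apart. The data were Deaf1 ChIP-seq peak lists from 2 replicates of C2C12, a mouse myoblast line. The cells are myocytes by their sample labels and differentiated myoblasts by the series text, and no treatment, transgene or genotype is given. The study also has 2 input samples, for which no list was analysed here, and there was no second condition to compare. Whether the replicates came from separate cultures is not stated, so their spread may be technical.

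Histone genes of this kind are switched on as cells enter S phase, inside a nuclear structure called the histone locus body that forms on the clusters around the factor Npat. Their transcripts have no poly(A) tail and end in a stem-loop that is bound by Slbp. Cells that leave the cell cycle, as differentiating muscle cells do, no longer need this supply, and histone variants made outside S phase then serve for replacement. Deaf1 is a transcription factor with a SAND domain, which binds DNA at TTCG motifs.

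Replicate 1 listed 65606 peaks and replicate 2 listed 26503. The fold of a peak is the authors' own value, the fragment pileup at the summit over the local background as MACS2 gives it, with 1 added to each. A gene was counted in a replicate when a summit lay within 1 kb of its span, and as called when this held in both replicates. The lists measure no expression, so the labelled cell type was not checked against marker genes. A gene without a peak had nothing that passed the caller. At the lowest background, the smallest listed pileups were 8 fragments (replicate 1) and 7 fragments (replicate 2), and signal below that is not shown by the lists.

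Deaf1 peaks were absent from most replication-dependent histone genes and present at a few. Both replicates had a summit at 9 of the 63 genes (14.3%), namely H1f1, H1f2, H1f3, H2ac1, H2bc1, H2bc3, H3c1, H3c3 and H4c1. By the same rule 60.8% of all protein-coding genes were called, and 53% of those with a span no longer than the longest histone gene of the set. Most histone genes are under 1 kb long, and gene length set a different background: 2.89% of other protein-coding genes of at most 1 kb were called, or 10.2% when chemosensory receptor genes were left out. Among the 58 histone genes of at most 1 kb, 9 were called (15.5%), and none of the 5 longer ones was. The histone share thus lay between that of all genes and that of other genes of like length. The set was tested against neither.

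The replicates differed in how many histone genes they marked. Replicate 1 had a summit at 15 histone genes, where 70.7% of all protein-coding genes had one. Replicate 2 had a summit at 9, where the share of all genes was 61.1%. Every histone gene with a replicate 2 summit also had one in replicate 1, as did 13162 of 13209 such genes among all protein-coding genes. A further 6 histone genes had a replicate 1 summit alone (H1f6, H2ac4, H4c4, H4c8, H4c11 and H4c12), and 48 histone genes (76.2%) had none in either list. Among all 21631 protein-coding genes, 15293 had a replicate 1 summit, and 13162 of them were called.

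**Figure D1:**
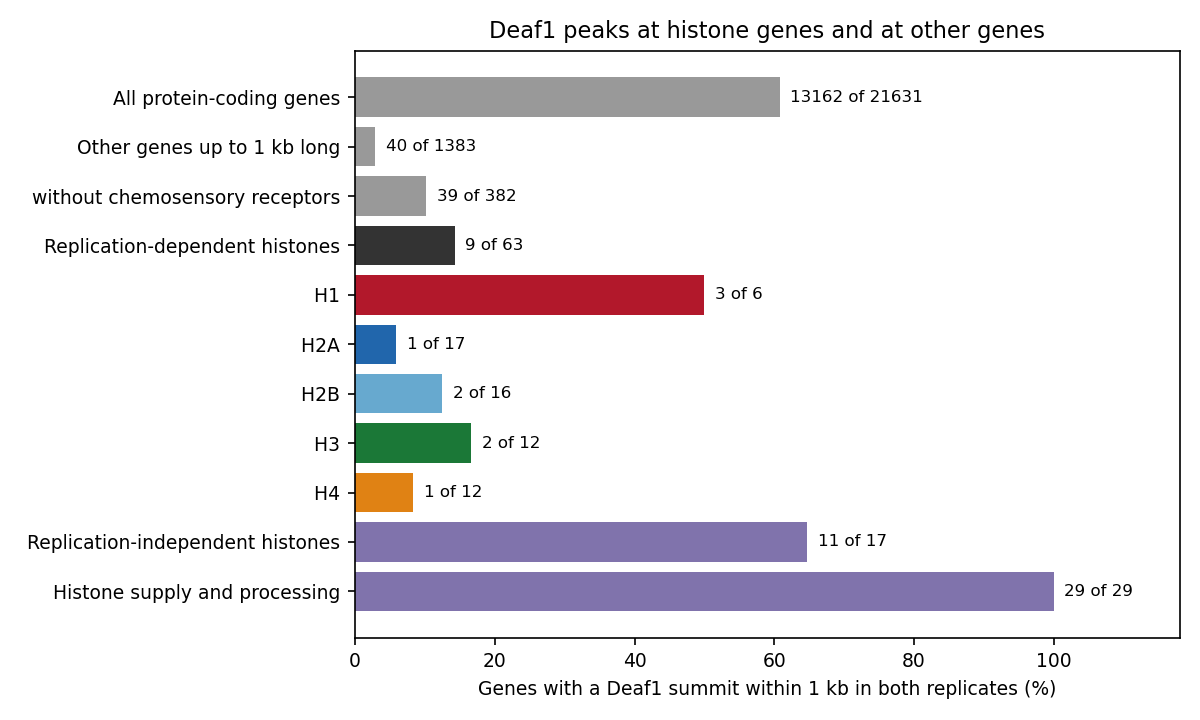
Share of genes with a Deaf1 summit within 1 kb of the span in both replicates (%), for all protein-coding genes, other genes of at most 1 kb, replication-dependent histone genes by class, and the related gene lists; the number at each bar is genes called of genes in the group. The histone classes H2A, H2B, H3 and H4 lie between 5.88% and 16.7%, H1 at 50%, and the listed genes of histone supply and processing at 100%.

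The linker histones, which bind the DNA between nucleosomes, had 3 called genes of 6. The 4 core classes, whose proteins form the nucleosome itself, had 6 called of 57 (10.5%). Beside these stand the 60.8% of all protein-coding genes, near the 50% of H1, and the 2.89% to 10.2% of other genes of at most 1 kb. With so few genes per class, and with several genes sharing a peak, the difference between classes was not tested. At H1f2, which codes for a somatic H1 subtype (chr13:23738807-23739531), replicate 1 had a fold of 13.5 from 42 fragments in a peak 1110 bp wide. Replicate 2 split this gene into 2 peaks, with folds of 11.6 (30 fragments) and 10.2 (27 fragments). The H1f2 fold of replicate 1 was the highest among the 63 genes in that list. H1f3 (chr13:23555032-23555807), another somatic H1 gene, also had 2 summits in each list. Its folds were 11.5 and 7.34 in replicate 1, against 6.83 and 4.17 in replicate 2. H1f1 (chr13:23763668-23764412) had folds of 11.5 and 4.72 in replicate 1 and a single peak of 5.31 in replicate 2.

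The highest peak of each marked H1 gene lay inside the gene and not before it. From the RefSeq start site, the summit of the highest peak was 136 to 425 bp downstream at the 4 H1 genes with a replicate 1 peak, and 125 to 235 bp downstream at the 3 with a replicate 2 peak. The testis H1 gene H1f6 had a replicate 1 peak alone, with a fold of 5.11 from 15 fragments, 250 bp downstream of its start. H1f4 and H1f5, the remaining H1 genes, had no peak in either list. H1f4 lies in the same block of genes as H1f1 to H1f3, and its promoter window held 22 CpG dinucleotides, more than the 10, 12 and 19 of H1f3, H1f1 and H1f2.

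The site between H4c1 and H3c1 had the highest replicate 2 fold among the 63 genes. H4c1 codes for histone H4 and H3c1 for histone H3, and their spans lie side by side (chr13:23760795-23761249 and chr13:23761885-23762386). In replicate 1 the summit had 80 fragments, with an exact 95% Poisson interval of 63.4 to 99.6, and a fold of 11.6. In replicate 2 it had 44 fragments, with an interval of 32.0 to 59.1, and a fold of 17.1. The intervals cover counting error only. The summits of the replicates were 4 bp apart, 195 and 191 bp upstream of the H4c1 start. In replicate 1 the local background at this summit was 6.01 fragments, against the lowest value of 2.13 in that list, and in replicate 2 it was at the lowest value, 1.64. A raised background lowers the fold, so the larger pileup of replicate 1 came with the smaller fold.

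The 250 bases before the start sites are shown for the gene with the highest peak of each class and for a pair of near-identical H4 genes with no peak. They are from the RefSeq promoter table of GRCm38.p6, on the strand of the gene, 5′ to 3′, with TTCG or its complement CGAA in capitals. The letters of the motif appear both with and without a peak. H3c1 has no entry there.
H4c1 (chr13:23761250-23761499, minus strand, summits inside, toward the left end): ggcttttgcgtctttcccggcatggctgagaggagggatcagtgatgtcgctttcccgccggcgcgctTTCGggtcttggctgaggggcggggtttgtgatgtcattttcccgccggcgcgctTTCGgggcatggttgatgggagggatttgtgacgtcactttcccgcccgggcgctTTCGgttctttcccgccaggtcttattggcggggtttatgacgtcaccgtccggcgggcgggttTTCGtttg
H1f2 (chr13:23738557-23738806, plus strand, summits past the right end): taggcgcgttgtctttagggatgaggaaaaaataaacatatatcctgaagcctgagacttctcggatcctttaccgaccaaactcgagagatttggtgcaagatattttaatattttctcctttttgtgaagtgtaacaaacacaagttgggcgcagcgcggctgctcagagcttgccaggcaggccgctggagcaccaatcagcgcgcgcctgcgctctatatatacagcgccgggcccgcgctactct
H2ac1 (chr13:23934187-23934436, plus strand, summits past the right end): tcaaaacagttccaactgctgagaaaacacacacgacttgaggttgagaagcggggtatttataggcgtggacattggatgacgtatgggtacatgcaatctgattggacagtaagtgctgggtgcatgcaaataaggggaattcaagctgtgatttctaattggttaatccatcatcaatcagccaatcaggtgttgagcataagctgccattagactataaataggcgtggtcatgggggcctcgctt
H2bc3 (chr13:23746484-23746733, plus strand, summits beyond the left end): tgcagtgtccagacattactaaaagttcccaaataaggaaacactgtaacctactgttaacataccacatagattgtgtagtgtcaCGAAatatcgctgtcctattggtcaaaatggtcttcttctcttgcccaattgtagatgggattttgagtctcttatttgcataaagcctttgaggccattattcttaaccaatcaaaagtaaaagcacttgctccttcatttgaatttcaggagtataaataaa
H4c17 (chr13:21811496-21811745, plus strand, no summit): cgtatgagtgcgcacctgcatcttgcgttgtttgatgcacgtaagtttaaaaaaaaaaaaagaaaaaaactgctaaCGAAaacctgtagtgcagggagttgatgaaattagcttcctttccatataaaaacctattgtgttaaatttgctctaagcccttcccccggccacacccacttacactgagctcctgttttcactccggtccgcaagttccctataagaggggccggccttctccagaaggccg
H4c18 (chr13:21832198-21832447, minus strand, no summit): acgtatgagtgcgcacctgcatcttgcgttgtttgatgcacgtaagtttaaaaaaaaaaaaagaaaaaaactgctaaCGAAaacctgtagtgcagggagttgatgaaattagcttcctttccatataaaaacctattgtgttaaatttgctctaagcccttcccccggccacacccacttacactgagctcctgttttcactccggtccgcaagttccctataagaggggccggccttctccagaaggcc
The H4c1 stretch held 4 matches, at −182, −127, −72 and −8 from the start site, the first 3 of them spaced by 55 bases. The summits lay 13 bases (replicate 1) and 9 bases (replicate 2) from the first. The stretches of H1f2 and H2ac1 held none, and those of H2bc3, H4c17 and H4c18 held 1 each. A match describes the letters and shows no binding site.

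Another site of both lists sat between H3c3 and H2bc3, genes for histones H3 and H2B. Its summits fell inside the H2A pseudogene H2ac5-ps (chr13:23746105-23746514), a gene copy that is not counted among the 63. Replicate 1 gave a fold of 11.8 from 36 fragments and replicate 2 a fold of 8.34 from 21. The summits were 350 and 372 bp upstream of the H2bc3 start and 863 and 841 bp upstream of the H3c3 start. When each summit was given only to the nearest gene span, H2bc3 kept it and H3c3 lost it. At the site between H4c1 and H3c1 the same rule kept H4c1 and lost H3c1.

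The testis-specific pair H2ac1 and H2bc1 shared the sixth site, at the far end of the Hist1 cluster. H2ac1 and H2bc1 code for the H2A and H2B forms of developing sperm cells. Replicate 1 had a fold of 9.90 from 30 fragments and replicate 2 a fold of 4.55 from 11. The summits lay within H2ac1, 227 and 122 bp downstream of its start, and within the span of the long non-coding RNA gene Gm33516. By rank of fold among all peaks of its list, with ties at their mean rank, the peak was at the 75.2 percentile in replicate 1 and the 11.7 percentile in replicate 2. The longer list of replicate 1 holds more weak peaks, which raises its percentiles. With that list shortened by p to the 26503 peaks of replicate 2, the replicate 1 value was 38.5. With the testis genes H1f6, H2ac1 and H2bc1 left out, 7 of 60 histone genes were called.

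Peaks in replicate 1 alone were mostly at H4 genes. H4c4, H4c8, H4c11 and H4c12 had folds of 4.47, 5.75, 3.40 and 6.39, from 13, 17, 16 and 19 fragments. H4c11 was among the lowest peaks of its list, at the 1.59 percentile, with a background of 4.01 fragments. The H4 summits lay close to the start, from 195 bp upstream to 193 bp downstream over the 5 H4 genes of replicate 1. H2ac4, an H2A gene, had a fold of 5.43 from 16 fragments, 102 bp downstream of its start. None of these genes had a replicate 2 summit within 1 kb.

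**Figure D2:**
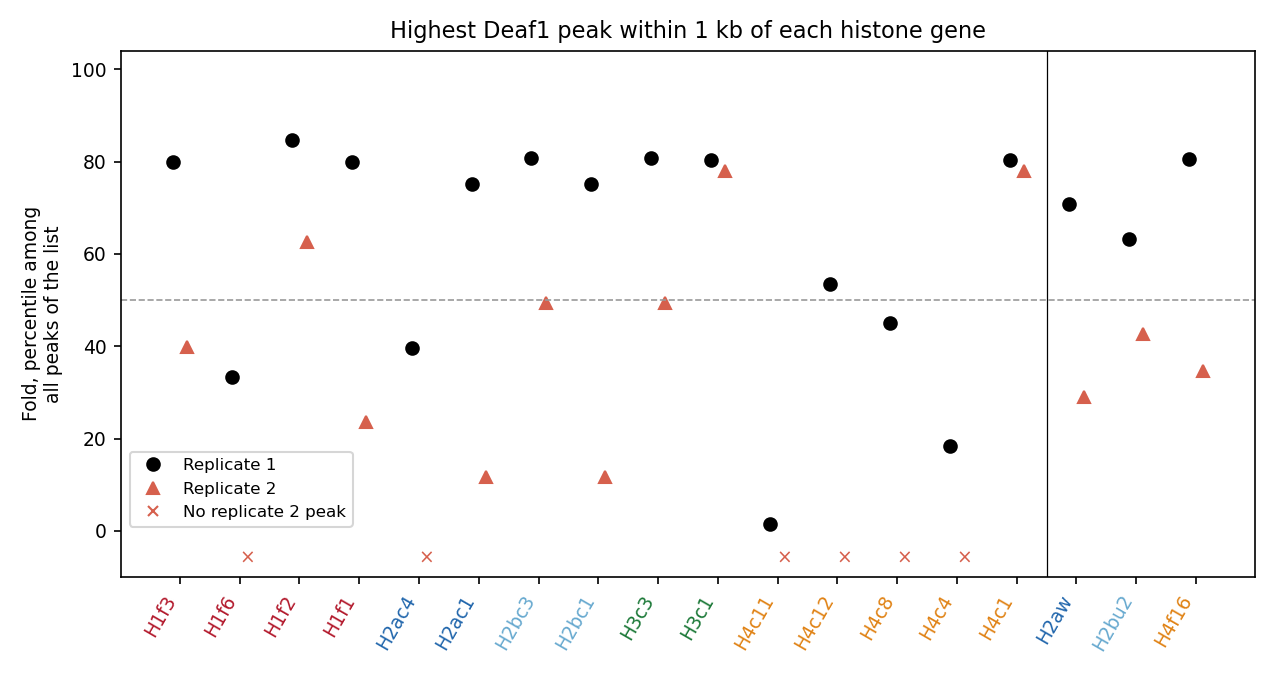
Fold of the highest Deaf1 peak within 1 kb of each histone gene that had a peak, as a percentile among all peaks of the same list (%), with replicate 1 as circles, replicate 2 as triangles, a cross where replicate 2 had no peak, and gene names coloured by class; the dashed line is the middle of a list and the genes right of the vertical line match by an older symbol only. The 9 called genes lie between 75.2 and 84.6 in replicate 1 and between 11.7 and 78.1 in replicate 2. The lists have 65606 and 26503 peaks, so heights are to be read within a replicate and not between them.

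Where they occurred, the peaks were of moderate size. Over the genes with a summit, the median of the highest fold was 9.90 in replicate 1 and 8.34 in replicate 2 (mean 9.12 ± 1.10, SD, n = 2). These medians stood at the 75.2 and 49.3 percentiles of their lists, which differ in length. At equal length, the 9 called genes lay between the 38.5 and 61.9 percentiles in replicate 1. Across all protein-coding genes with a summit the same median was 15.3 in each replicate, and across other genes of at most 1 kb it was 7.98 (78 genes) and 8.11 (41 genes). Several genes here share a peak, and these medians count such a peak once for each gene. With each peak counted once, and second peaks at a gene included, there were 14 distinct peaks in replicate 1 and 8 in replicate 2. Over these distinct peaks the median fold was 6.86 in replicate 1 and 7.59 in replicate 2, lower than the medians per gene. The fold was at or below the list's median at 6 of the 14 and 5 of the 8. The replicate 2 peak between H3c3 and H2bc3 was at that median. The 9 called genes came from 6 separate sites.

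The called genes were unevenly placed along Hist1, in counts that were not tested. The first block of Hist1 (chr13:21715711-21837530) held 17 of the genes, of which none was called and 2 had a replicate 1 peak. The middle block (chr13:22035122-22043658) held 5 genes and no peak. The third block (chr13:23531044-23764412) held 29 genes, with 7 called, 4 with a replicate 1 peak alone and 18 with none. The 7 rest on 5 sites, in a genome where 60.8% of all protein-coding genes and 10.2% of other genes of at most 1 kb without chemosensory receptors were called. H2ac1 and H2bc1 stand alone beyond it (chr13:23933725-23934913). All 6 shared sites thus lay in the third block or beyond it. Hist2 (chr3:96219885-96270192) had no peak of either list along its 50.3 kb. The nearest summits to Hist2 genes were 26702 to 76517 bp away in replicate 1 and 27929 to 77744 bp away in replicate 2.

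The genes with no peak included all classes. They were H1f4 and H1f5. Of H2A they were H2ac6, H2ac7, H2ac8, H2ac10, H2ac11, H2ac12, H2ac13, H2ac15, H2ac18, H2ac19, H2ac20, H2ac21, H2ac22, H2ac23 and H2ac24. Of H2B they were H2bc4, H2bc6, H2bc7, H2bc8, H2bc9, H2bc11, H2bc12, H2bc13, H2bc14, H2bc15, H2bc18, H2bc21, H2bc22 and H2bc23. Of H3 they were H3c2, H3c4, H3c6, H3c7, H3c8, H3c10, H3c11, H3c13, H3c14 and H3c15, and of H4 they were H4c2, H4c3, H4c6, H4c9, H4c14, H4c17 and H4c18. Their nearest summit was 1155 to 82471 bp away in replicate 1 (median 12272.5 bp), and 3495 to 191407 bp away in replicate 2 (median 46487.5 bp). The gene closest to the limit was H3c2, with a replicate 1 summit 1155 bp from its span.

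**Figure D3:**
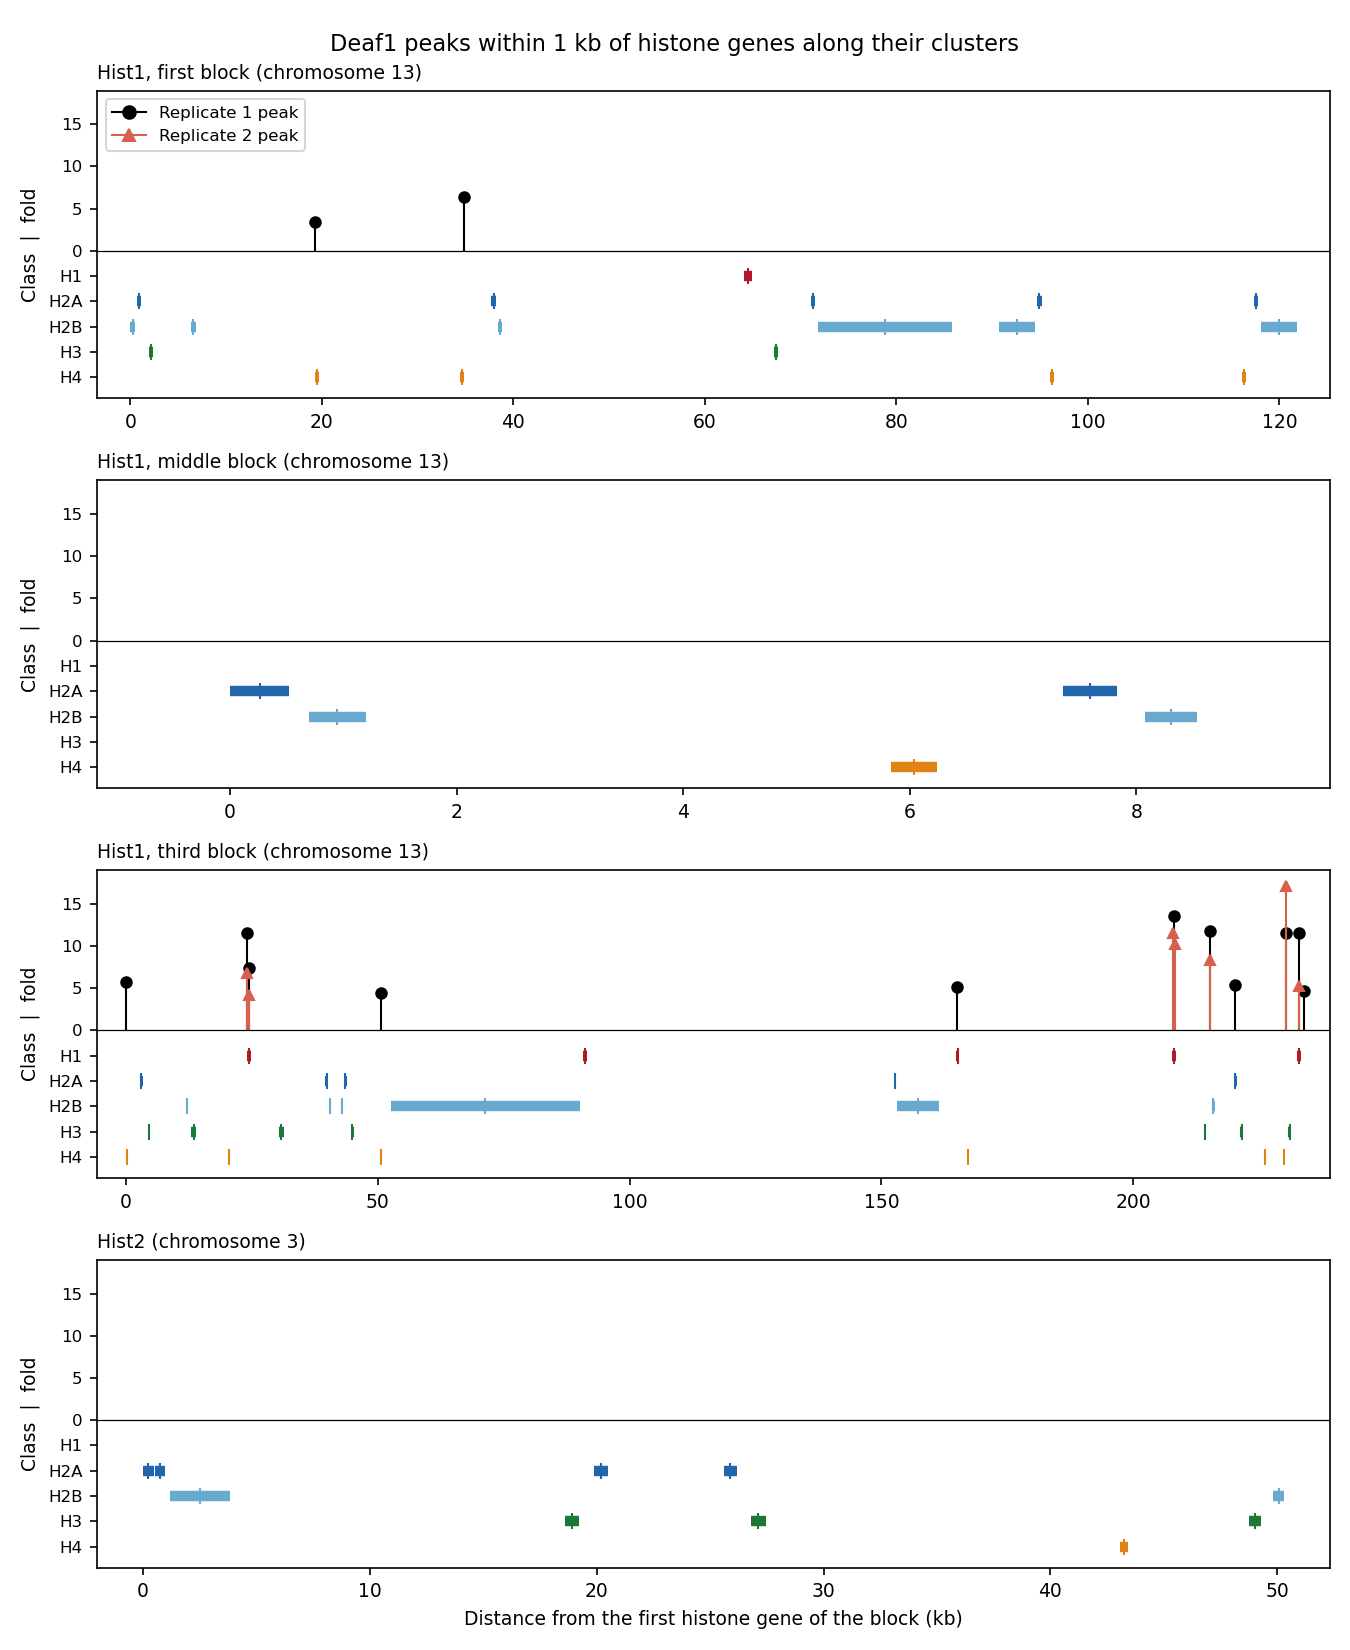
Deaf1 peaks within 1 kb of histone genes along 3 blocks of the Hist1 cluster and along Hist2, with the distance from the first gene of a block on the x axis (kb), the fold of each peak as a stem above the line (circles replicate 1, triangles replicate 2) and gene spans by class as bars below it. Peaks of both replicates appear only in the third block among those drawn, and the middle block and Hist2 are empty; the H2ac1 and H2bc1 pair lies outside the blocks drawn.

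Over all genes, start sites rich in CpG had a Deaf1 peak in most cases, and the counts at histone start sites showed no such rise. Of all protein-coding start sites 52.1% had a summit of both replicates within 1 kb. The share went from 3.34% at start sites with 0 to 4 CpG dinucleotides in the 300-base promoter window to 92.3% at those with 20 or more. The promoter table held 58 of the 63 genes, in 59 windows (H2bc6 has 2 start sites), and H2bc4, H2bc21, H3c1, H3c7 and H4c14 have no entry. The histone windows had a median of 11 CpG dinucleotides, from 3 to 41, against 13 over all windows. With 10 to 14 CpG dinucleotides, 2 of 15 histone start sites were called, where 58.5% of all start sites were. With 15 to 19, 1 of 14 was called, where the share of all start sites was 77.6%. With 20 or more, 1 of 6 was called, H4c1 with 27. H1f4, H2ac18, H2ac19, H3c14 and H3c15 were the others, with 22 to 41 CpG dinucleotides and no peak. In the windows with 5 to 9, 3 of 21 were called beside 21.9% of all, and with 0 to 4, 1 of 3. Some of the CpG-rich windows with no peak hold repeated sequence, measured below. In those of H2ac18, H2ac19, H3c14 and H3c15, 67.7% to 74.1% of short stretches were shared with another position, and in that of H1f4 none. Among those with 15 to 19, it was 73.3% to 100% for H2ac24, H2ac23 and H2bc23. Whether repeats lowered the histone counts in these bins was not tested.

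**Figure D4:**
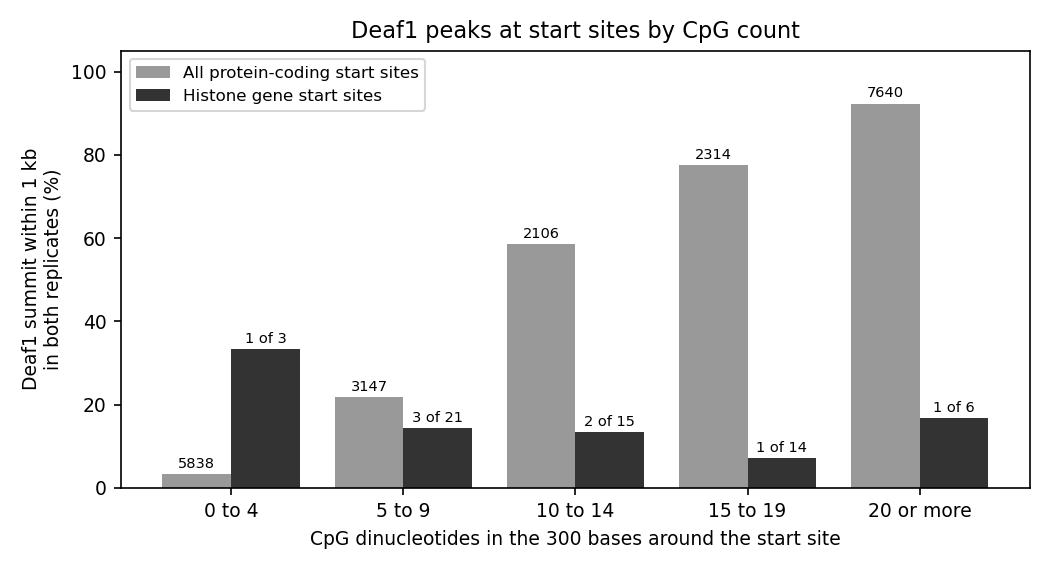
Share of start sites with a Deaf1 summit of both replicates within 1 kb (%), by the number of CpG dinucleotides in the 300 bases around the start site, for all protein-coding start sites (grey, with their number) and histone start sites (dark, with called of all). The grey bars climb from 3.34% to 92.3%, while 1 to 3 histone start sites are called in each bin. Histone windows with repeated sequence are included in the dark bars.

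Repeated sequence was measured beside these absences, since reads from identical copies cannot be told apart by their sequence. Of the 59 histone windows, 11 shared a stretch of 50 bases with another position in the promoter table. None of the 8 windows of called genes did, 2 of the 6 with a replicate 1 peak alone did, and 9 of the 45 with no peak did. In those 9 windows over 50% of the 50-base stretches were shared, H4c17, H4c18, H3c14, H3c15, H2ac18 and H2ac19 among them. The sequences printed for H4c17 and H4c18 show this, being 100% identical once shifted. The other 36 windows with no peak shared none within that table. How reads at repeats were treated is not given in the sources used here, and the part of repeats in the absences was not tested.

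Motif letters were common in histone promoters with and without peaks. On both strands, TTCG stood in 86.4% of histone windows and in 49.4% of all promoter windows of the same length. Over all start sites it stood in 61.5% of those called and in 36.3% of those not called. Histone genes did not keep that order: 5 of 8 windows of called genes held TTCG, against 42 of 45 windows of genes with no peak. Of those 8 called genes, only H4c1 had its summits inside its window, so the sequence at the other summits was not searched. Windows of neighbouring genes can overlap, as those of H2ac1 and H2bc1 do. H4c1 had 4 matches, as 2.18% of all windows had 4 or more. But H2ac7, H2ac22, H2ac23, H2bc6, H2bc7, H2bc22 and H2bc23 also had 4 or 5, and none of them had a peak. These genes are not separate cases. The windows of H2ac7 and H2bc7 overlap, as do those of H2ac22 and H2bc22, and of H2ac23 and H2bc23. Matches in an overlap count for both genes. Of the stretches compared for repeats, 86.9% (H2ac23) and 100% (H2bc23) were shared, so reads there may not be placed by sequence. The part of repeats in these absences was not tested. The usual histone promoter elements were searched too. CCAAT, the box bound by NF-Y, stood in 86.4% of histone windows and 38.5% of all, and only 3 of 11 H4 windows held it. TATAAA stood in 57.6% against 12.7%, and the octamer ATTTGCAT, bound by Pou2f1, in 22.0% against 1.68%. The octamer was found in 6 of 17 H2A and 7 of 15 H2B windows and in no H1, H3 or H4 window.

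The histone genes that are expressed outside S phase included many with a high Deaf1 peak. From a list of 17 replication-independent histone genes, 11 were called (64.7%), which is near the 60.8% of all genes. The median of their highest fold was 19.3 in replicate 1 and 22.4 in replicate 2. H3f3a, which codes for the replacement histone H3.3, had folds of 31.3 and 32.2, at the 99.96 and 99.2 percentiles. H2az1 and H2az2, the genes of variant H2A.Z, had folds of 24.3 and 28.8, and of 23.6 and 28.1. The H2az1 folds came from different sites. Its highest summit was 218 bp upstream of the start in replicate 1. In replicate 2 it was 3315 bp downstream, past the gene end. H1f0, the H1 form of non-dividing cells, had folds of 19.1 and 16.5. H1f8, the oocyte H1, had a replicate 1 peak alone with a fold of 5.43. H2ax, H2al2a, H2ab1, Hils1 and H3f3c had none. H2ax codes for the H2A.X of DNA repair and also yields stem-loop transcripts of the S-phase type. Its nearest summits were 29177 and 29173 bp away. Gene length differs as well: 14 of the 17, and all 11 called, span over 1 kb.

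A list of histone supply and processing genes was examined beside the clustered genes, chosen by hand with earlier results of these data known. It holds regulators of S phase and of histone transcription, histone mRNA processing factors and histone chaperones, including Hira, Daxx and Atrx, which deposit the replication-independent H3.3. Both replicates had a summit at 29 of the 29 genes listed, where 60.8% of all genes were called. When each summit was given only to the nearest gene span, 24 of the 29 were called, beside 57.6% of all genes. All 29 span over 1 kb, and other genes of these functions were not counted. The median of the highest fold was 17.4 and 16.8, beside 15.3 and 15.3 over all genes with a summit. Ccne2 and Ccne1, the cyclins E that start S phase with Cdk2, had folds of 28.7 and 32.2, and of 26.5 and 29.6. Asf1a, a histone chaperone, had folds of 19.6 and 31.6. Npat, the organiser of the histone locus body, had lower folds of 12.5 and 8.25. Slbp, which binds the stem-loop of histone mRNA, had folds of 16.1 and 16.8. Hinfp, the activator of H4 genes, had folds of 22.9 and 22.0. The lowest replicate 2 fold of the list was at Asf1b, with 10.6 and 4.74.

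Of the 4 genes that match by an older symbol only, 3 were called, where 60.8% of all protein-coding genes were. They lie outside the Hist1 and Hist2 clusters. H4f16 (Hist4h4), a lone H4 gene on chromosome 6, had folds of 11.8 (58 fragments) and 6.12 (23 fragments), with summits 201 and 196 bp downstream of its start. H2bu2 (Hist3h2ba) and H2aw (Hist3h2a) form the Hist3 pair on chromosome 11. H2bu2 had folds of 7.35 and 7.21 and H2aw had folds of 8.81 and 5.69, and their spans overlap Gm51864 and Trim17. H4bc24 (Hist1h2br), in the first block of Hist1, had no peak. With these genes added, 12 of 67 were called, against that same 60.8%.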

How the data were processed

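Deaf1 ChIP and input chromatin were sequenced in C2C12 cells. Per the submitters' processing notes, BWA, MACS2 and mm10 were used. Neither versions nor parameters, nor the control used for peak calling, are stated there. Each ChIP replicate has its own list, so peaks were called per sample. The fold, a ratio, is the authors' value for each peak, as are the deposited −log10 p-value and −log10 q-value and the deposited score. Peak positions were made 1-based.

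Read depth is unknown. The pileup and background at each summit were recovered from fold and p by the Poisson model of the caller. The fit missed −log10 p by at most 4.07e-05 (replicate 1) and 3.87e-05 (replicate 2), and 100% of 1925 simulated pileups were recovered. Pileup intervals are exact Poisson intervals at 95%.

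Gene spans and promoters (250 bases before to 50 after a start site) came from RefSeq tables of GRCm38.p6, whose spans join all models of a gene. Counts and shares are described without a test, since there was no second condition. The members and lists were chosen with earlier results of these data known, so none of them is independent support. Every member is accounted for. Given in full were the highest members of each class by mean percentile and those with peaks in a single replicate, and of the other lists the 3 highest and every gene with no peak. Further genes of those lists, such as Npat, Slbp, Hinfp and Asf1b, were chosen after their values were seen. Python 3.11.15, numpy 2.4.6, pandas 2.3.3, scipy 1.17.1 and matplotlib 3.10.9 were used. Alternatives were windows of 500 bp and 2 kb, a fold or −log10 q of at least 5, lists of equal length, overlapping peaks, the nearest gene and each replicate alone.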

Additional observations from a re-analysis of the deposited data

How the results depend on the processing

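No paired analysis was possible because the results come from no test between groups. Of 119 alternative values, 106 stayed within the set limits and 13 moved. The limits were wide, as a fall from 9 to 6 called histone genes stayed within them. The values are also not separate, since the Hist1 counts equal those of the whole set. The count of called histone genes was 7 with a 500 bp window, 9 with 2 kb, 7 with a fold of at least 5, 7 with a −log10 q of at least 5, 9 with lists of equal length, 9 with overlapping peaks and 6 with the nearest gene only. Taking each replicate alone gave 9 to 15 genes in the set and 9 to 15 in Hist1, replicate 1 giving the higher count. The small counts per class moved more easily. H2A went from 1 to 0 with a fold of at least 5 and to 0 with a −log10 q of at least 5, and to 1 to 2 in single replicates. H2B went from 2 to 1 with a 500 bp window, with a fold of at least 5, with a −log10 q of at least 5 and with the nearest gene only. H3 went from 2 to 1 with a 500 bp window, to 0 with the nearest gene only and to 1 within 1 kb of a start site, for which H3c1 has no entry. H4 had 1 to 5 in single replicates. The fold and q limits removed the replicate 2 peak of H2ac1 and H2bc1 (fold 4.55). The cause of the difference between replicates was not tested. H1 had 3 in every alternative but replicate 1 alone, which gave 4, and Hist2 had 0 in all of them. The start-site window, the older symbols, the set without testis genes and the backgrounds by length and CpG count were chosen after seeing the data. Pileups near 8 fragments limit what the lists can show.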

Other observations

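The histone genes of Hist1 are interspersed with other genes, of which few had Deaf1 peaks. Between the first and last histone gene of the cluster (chr13:21715711-23934913) there were 50 other protein-coding genes, of which 4 were called: Zfp184, Pom121l2, Prss16 and Abt1. The share over all protein-coding genes was 60.8%. Of these 50 genes, 36 were Vmn1r vomeronasal receptor genes, and none of the 36 was called, so 4 of the other 14 were. Transfer RNA genes were the most frequent neighbours, with 77 in the interval. Of these, 2 were called, and 9 had a replicate 1 summit. Over the 408 transfer RNA genes of chromosomes 1 to 19 and X, 51 were called (12.5%). Of 15 long non-coding RNA genes in the interval 2 were called, beside 21.7% of all such genes. Of 56 pseudogenes the H2A pseudogene H2ac5-ps was the 1 called, beside 2.75% of all pseudogenes.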
